A study of Mus musculus with 2 samples.

Results

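The 10 genes described here encode nuclear regulators that set up and keep the identity of rods and cones: Otx2, Crx, Neurod1, Nrl, Nr2e3, Esrrb, Samd7, Samd11, Prdm1 and Mef2d. They were chosen by name, and each symbol matched 1 row among the 32285 genes of the count matrices. The data come from a mouse retina study with 2 single-cell RNA-seq libraries, made on the 10x Genomics 3′ platform, in which each captured RNA molecule is counted once through its unique molecular identifier (UMI). The first library is from retina exposed to short-wavelength light and the second from retina exposed to full-spectrum white light, in both cases starting on postnatal day 14 and lasting 2 weeks. The labels give no genotype, strain or sex, and do not say how many animals were pooled. With 1 library per condition there is no replicate, so light, animals, dissociation and library cannot be told apart, no test between conditions was made, and every interval below is a 95% interval for counting error only.

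Vertebrate photoreceptors are specified by a small hierarchy of regulators. The homeodomain protein Otx2 acts first and is needed for photoreceptors and bipolar cells, and its relative Crx then switches on most photoreceptor genes, together with the basic helix-loop-helix factor Neurod1 and the MADS-box factor Mef2d. The leucine-zipper factor Nrl directs a photoreceptor precursor to become a rod, and acts through the orphan nuclear receptors Nr2e3, which silences cone genes in rods, and Esrrb, which is needed for rod survival. The zinc-finger repressor Prdm1, also called Blimp1, keeps developing photoreceptors from becoming bipolar cells. Samd7 and Samd11 carry a sterile alpha motif and work as parts of a Polycomb silencing complex that keeps non-rod genes off in rods, so they are regulators of chromatin and not DNA-binding factors.

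The short-wavelength library held 16106 cell barcodes and 51681469 UMIs (median 2434 per barcode), and the white-light library 5707 barcodes and 20952589 UMIs (median 2784); 26 barcode sequences occurred in both. Cells were assigned to classes by UMIs of marker genes, none of them among the 10 regulators. This gave 15031 rods under short-wavelength light and 5055 under white light, 426 and 139 cones, 163 and 50 bipolar cells, 64 and 29 Müller glia and 36 and 16 microglia, while 375 and 406 barcodes that passed the quality filters met no gate. Median UMIs per cell were 2387 and 2760 in rods, 6564.5 and 6786 in cones and 6363 and 8119 in bipolar cells. Levels are given as CPM, the UMIs of a gene per 1000000 UMIs summed over a class in 1 library. Gnat1, the alpha subunit of rod transducin, stood at 3264 and 3507 CPM in rods, and it was also counted at 909.5 and 1013 CPM in cones and at 504 and 459 CPM in bipolar cells, so rod RNA was present in the barcodes of every other class. Ratios between classes were therefore also computed with rod RNA taken off the other class, in the proportion of 3 rod genes (Gnat1, Pde6b and Cnga1) there to their level in rods; these values are given where they end or make a call.

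The regulators fell into groups by where their RNA was found. Nrl, Nr2e3, Samd7, Samd11 and Esrrb, 5 of the 10, had their highest CPM in rods among rods, cones and bipolar cells in both libraries. For 4 of them, Nrl, Nr2e3, Samd11 and Esrrb, the interval of the ratio of rods over cones lay wholly beyond 2-fold in both libraries, a size reached by 2.58% of 12653 genes under short-wavelength light and 2.48% of 11188 under white light. None of the 10 was lower in rods than in cones beyond that size in both libraries, against 7.03% and 5.47% of all genes. In bipolar cells, 8 of the 10 were lower than in rods beyond 2-fold in both libraries, against 8.03% of 12749 genes under short-wavelength light and 6.2% of 11228 under white light. None was higher in bipolar cells beyond that size, which 11.9% and 8.32% of all genes were. Between the light conditions none of the regulators differed beyond 1.5-fold in rods or cones.

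**Figure D1:**
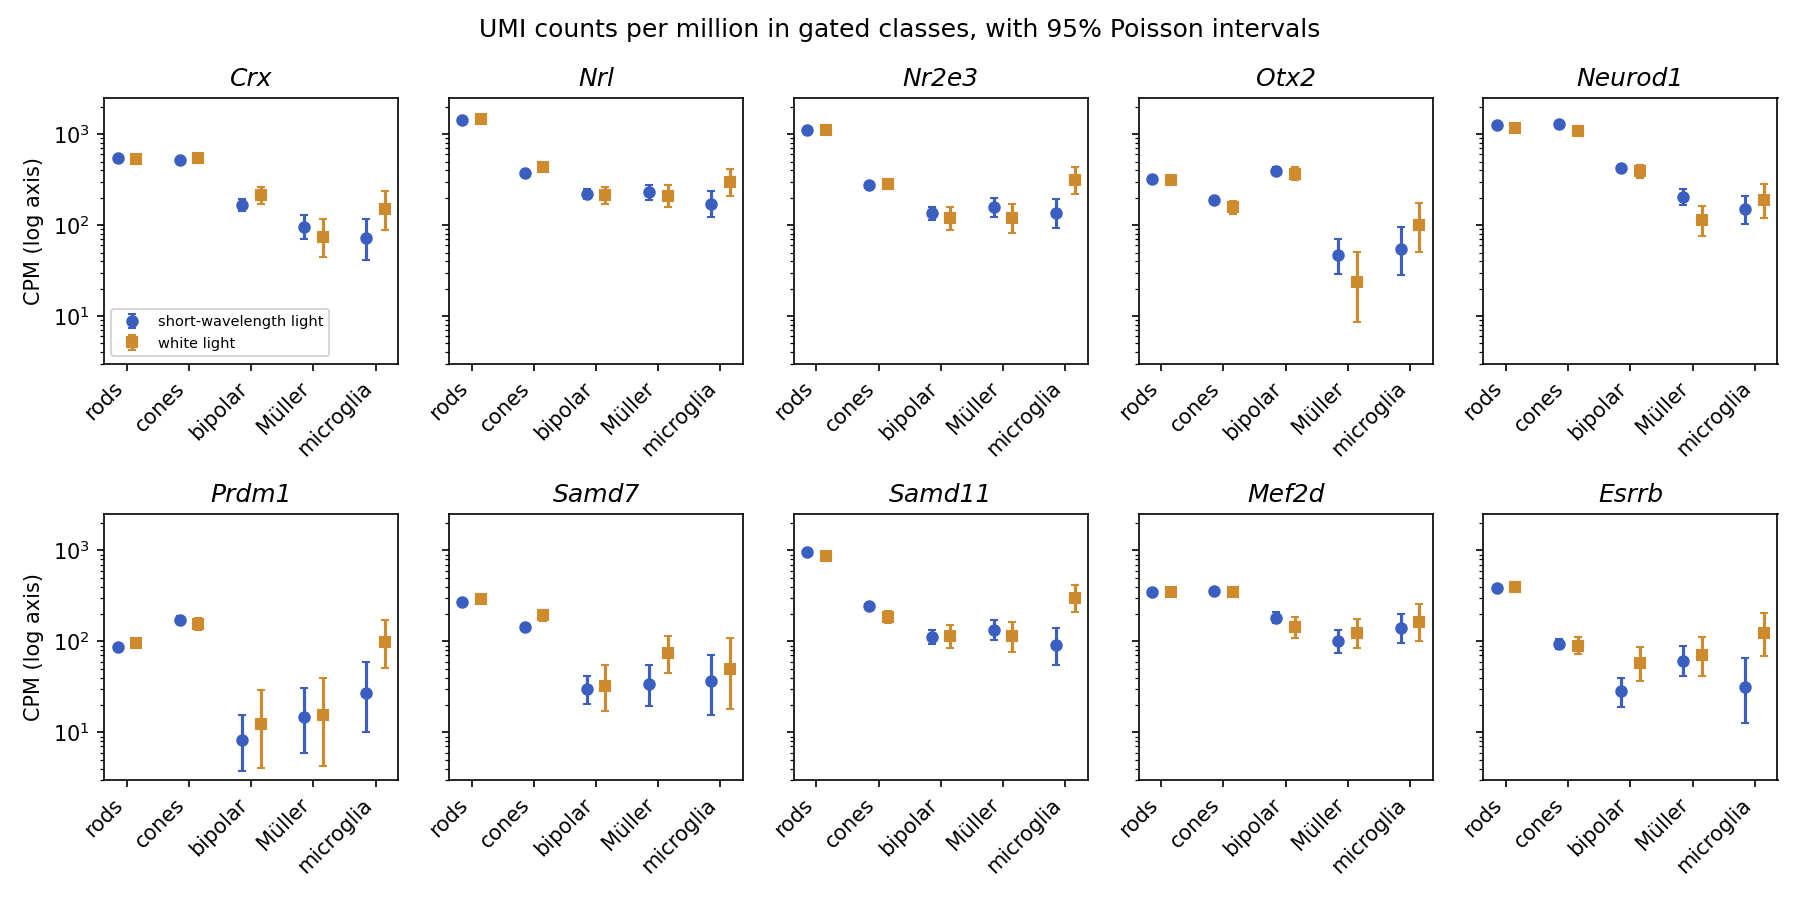
Level of each regulator in 5 gated classes as CPM on a log axis, under short-wavelength light (circles) and white light (squares), with 95% Poisson intervals; each point is 1 library. Nrl, Nr2e3, Samd11 and Esrrb peak in rods, Prdm1 is higher in cones than in rods, and Otx2 is as high in bipolar cells as in rods or higher.

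Otx2 was the regulator found in bipolar cells at a level at least that of rods. Its level in bipolar cells was 392 CPM (356 to 430.4) with short-wavelength light and 367 CPM (310.0 to 431) with white light, against 324 and 316 CPM in rods and 187 and 158 CPM in cones. The ratio of bipolar cells over rods was 1.21 (1.10 to 1.33) under short-wavelength light, where the interval leaves out 1 as it does upwards for 24.4% of all genes, and 1.16 (0.980 to 1.37) under white light, where it does not. With rod RNA taken off the bipolar cells the ratio was 1.08 (0.978 to 1.19) and 1.03 (0.871 to 1.22), and both intervals include 1. At least 1 Otx2 UMI was found in 92.0% and 86% of bipolar cells, against 22.2% and 43.8% of microglia, immune cells expected to lack it, whose median depths were 6818.5 and 6920 UMIs. Bipolar cells with at least 20 UMIs of Prkca and Car8, genes of rod bipolar cells, were set apart from the other bipolar cells. Otx2 stood at 358 CPM in 115 rod bipolar cells, against 473 CPM in 48 other bipolar cells under short-wavelength light, and at 336 CPM in 37, against 466 CPM in 13 under white light. The ratio of the 2 kinds was 0.757 (0.619 to 0.929) under short-wavelength light, below 1 with its interval, and 0.722 (0.503 to 1.05) under white light, where the interval reaches past 1.

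Rods over cones, the Otx2 ratio was 1.73 (1.59 to 1.89) with short-wavelength light and 2.001 (1.70 to 2.37) with white light, higher in rods with both intervals above 1 and neither wholly beyond 2-fold. With rod RNA taken off the cones it was 3.20 (2.93 to 3.49) and 4.22 (3.59 to 4.99), both wholly beyond 2-fold, as were 16.7% and 15.1% of all genes treated alike. An interval above 1 was found for 32.6% and 25.6% of all genes in this contrast. The Otx2 gene lies on chromosome 14 from 48657677 to 48673819 on the minus strand (mm10). The gene models Gm49154 on the same strand and Otx2os1 on the opposite strand overlap it. Whether reads of either model were counted with it is not given here.

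As counted, Crx RNA differed little between rods and cones. It had 554 CPM (547 to 561) in rods and 521 CPM (495 to 548) in cones under short-wavelength light, and 536 CPM (525 to 547) in rods and 553 CPM (508 to 602) in cones under white light. The ratio of rods over cones was 1.06 (1.01 to 1.12) and 0.968 (0.887 to 1.06) under white light, so a difference of 1.5-fold in either direction lies outside both intervals. With rod RNA taken off the cones the ratio was 1.48 (1.40 to 1.56) and 1.30 (1.19 to 1.42), where both intervals lie above 1, the first includes 1.5 and the white-light direction is turned. In bipolar cells Crx was lower, at 167 and 212 CPM, with a ratio over rods of 0.302 (0.260 to 0.349) with short-wavelength light and 0.396 (0.316 to 0.490) with white light.

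Promoter sequences were read from RefSeq for all 10 genes, 14 windows in all on GRCm38.p6, each from 250 bases before the annotated start to 50 bases after it. They were searched on both strands for TAATCC, the core that Crx and Otx2 proteins are known to bind. The windows of Crx, Samd7 and Samd11, which hold it, are printed, while an Otx2 window that also holds it is not. Capitals mark the motif, as TAATCC on the printed strand or GGATTA where it lies on the other strand, and all sequences run 5′ to 3′ along the gene. The windows are chr7:15879906-15880205 on the minus strand for Crx, chr3:30746043-30746342 on the plus strand for Samd7 and chr4:156255293-156255592 on the minus strand for Samd11.
Crx: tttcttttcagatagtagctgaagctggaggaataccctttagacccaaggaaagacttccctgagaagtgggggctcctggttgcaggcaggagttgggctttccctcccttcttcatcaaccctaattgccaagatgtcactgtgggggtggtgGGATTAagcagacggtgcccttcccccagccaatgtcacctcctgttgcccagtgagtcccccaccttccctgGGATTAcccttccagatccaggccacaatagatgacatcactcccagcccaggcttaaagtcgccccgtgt
Samd7: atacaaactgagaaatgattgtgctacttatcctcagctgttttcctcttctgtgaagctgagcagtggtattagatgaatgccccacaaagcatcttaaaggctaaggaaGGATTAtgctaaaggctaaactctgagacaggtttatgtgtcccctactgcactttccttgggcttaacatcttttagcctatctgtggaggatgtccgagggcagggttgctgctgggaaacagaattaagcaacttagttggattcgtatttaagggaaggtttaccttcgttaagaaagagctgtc
Samd11: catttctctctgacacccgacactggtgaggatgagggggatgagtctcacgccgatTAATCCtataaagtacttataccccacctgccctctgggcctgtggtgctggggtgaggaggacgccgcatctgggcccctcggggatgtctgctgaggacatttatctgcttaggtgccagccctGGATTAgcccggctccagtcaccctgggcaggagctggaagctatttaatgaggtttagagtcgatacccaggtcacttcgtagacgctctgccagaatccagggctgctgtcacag
The matches begin at -94 and -21 from the start in Crx, at -139 in Samd7 and at -193 and -67 in Samd11, counted back from the start. One of the 4 Otx2 windows held a further match, at -211, and the windows of Nrl, Nr2e3, Neurod1, Prdm1, Mef2d and Esrrb held none. Among 32851 promoter windows of the same length, 7.06% held the motif. The E-box CANNTG, the kind of site bound by basic helix-loop-helix factors such as Neurod1, was present in 72.3% of all windows and in 11 of these 14. A match describes letters in this window and does not show binding.

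Neurod1, a factor that photoreceptors keep into adulthood, was likewise close to equal in rods and cones as counted. It had 1252 CPM in rods, against 1284 in cones, under short-wavelength light and 1158, against 1075, under white light. The ratio of rods over cones was 0.975 (0.943 to 1.01) and 1.08 (1.01 to 1.15), with the higher value in cones in the short-wavelength library, where the interval includes 1, and in rods in the white-light library. Mef2d, which works with Crx at photoreceptor enhancers, had 353 and 348 CPM in rods and 358 and 345 CPM in cones, with ratios of 0.984 (0.924 to 1.05) and 1.01 (0.902 to 1.13). Both intervals for Mef2d include 1. With rod RNA taken off the cones, Neurod1 stood at 1.31 (1.27 to 1.36) and 1.502 (1.41 to 1.600) and Mef2d at 1.33 (1.25 to 1.42) and 1.37 (1.23 to 1.53), all above 1 with their intervals, as were 56.2% and 48.5% of all genes treated alike.

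In bipolar cells Neurod1 stood at 423 and 392 CPM, 0.338 and 0.339 of the level in rods, and both intervals end below 0.5. Mef2d stood at 182 and 145 CPM there. Its ratio over rods of 0.515 (0.446 to 0.592) and 0.416 (0.316 to 0.539) was lower in bipolar cells without passing the 2-fold size. With rod RNA taken off the bipolar cells it was 0.384 (0.332 to 0.441) and 0.287 (0.218 to 0.371), both wholly beyond 2-fold. So were 12.8% and 9.1% of all genes treated alike. Neurod1 (chromosome 2, 79452521 to 79456751, minus strand) overlaps the gene model of Cerkl on the same strand and Gm26755 on the other strand. Mef2d (chromosome 3, 88142372 to 88172086, plus strand) overlaps 1700113A16Rik on the opposite strand. Whether these overlaps reach exons or the 3′ ends, where this assay counts, is not given here.

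The regulators that define the rod were counted far more densely in rods than in cones. Nrl had 1448 CPM (1437 to 1459) in rods and 375 CPM (353 to 398) in cones under short-wavelength light, and 1487 CPM (1469 to 1505) in rods and 436 CPM (395 to 479.6) in cones under white light. Its ratio of rods over cones was 3.86 (3.64 to 4.11) and 3.41 (3.10 to 3.76). Nr2e3, which holds cone genes low in rods, had 1103 and 1113 CPM in rods and 279 and 284 CPM in cones, with ratios of 3.96 (3.69 to 4.25) and 3.91 (3.47 to 4.42). Esrrb had 384 and 398 CPM in rods and 94.4 and 89.7 CPM in cones, with ratios of 4.07 (3.61 to 4.61) and 4.44 (3.60 to 5.55). In all 3 genes the interval of rods lay above that of cones in each library.

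In bipolar cells Nrl stood at 219 and 215 CPM, Nr2e3 at 135 and 119.8 CPM and Esrrb at 28.2 and 57.4 CPM. The ratios of bipolar cells over rods were 0.151 and 0.144 for Nrl, 0.123 and 0.108 for Nr2e3 and 0.0733 and 0.144 for Esrrb, each with its interval beyond 2-fold. Müller glia, which are not known to use these genes, held Nrl at 231 and 211 CPM, levels whose intervals overlap those of bipolar cells in each library. Nrl lies on chromosome 14 from 55518978 to 55524981 (minus strand) and Esrrb on chromosome 12 from 86361117 to 86521628 (plus strand), and neither overlaps another gene model. Nr2e3 (chromosome 9, 59942771 to 59960659, minus strand) shares sequence with Gm15507 on its own strand and Gm7616 on the other.

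The 2 Polycomb partners differed from each other in cones. Samd11 had 951 CPM (942 to 960.2) in rods and 244 CPM (227 to 263) in cones under short-wavelength light, and 875 CPM (861 to 889) and 187 CPM (160.4 to 216) under white light, a ratio of 3.89 (3.61 to 4.20) and 4.69 (4.05 to 5.46). Samd7 had 271 and 291 CPM in rods and 142 and 193 CPM in cones, a ratio of 1.90 (1.73 to 2.11) and 1.51 (1.31 to 1.76). The interval of the Samd11 ratio lies above that of the Samd7 ratio in both libraries. In bipolar cells both were low, Samd11 at 112 and 115 CPM and Samd7 at 30.0 and 32.4 CPM on 33 and 13 UMIs. Samd7 lies on chromosome 3 from 30746293 to 30767174 (plus strand) with no overlapping gene, while Samd11 (chromosome 4, 156246966 to 156255657, minus strand) meets Noc2l and Gm47252 on the opposite strand.

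Prdm1 was the single regulator of the 10 that was higher in cones in both libraries with intervals leaving out 1. It had 86.0 CPM (83.3 to 88.7) in rods and 172 CPM (158 to 188) in cones under short-wavelength light, and 95.4 CPM (90.9 to 100.1) and 156 CPM (132 to 183) under white light. The ratio of rods over cones was 0.498 (0.454 to 0.548) and 0.613 (0.519 to 0.729), a direction that 23.7% and 19.1% of all genes share by the same rule. Prdm1 UMIs were found in 19.8% and 24.2% of rods and in 56.6% and 50.4% of cones, whose cells are deeper. They were found in 6.25% and 10.3% of Müller glia and in 16.7% and 43.8% of the 36 and 16 microglia. With each cell thinned to 1000 UMIs the shares were 7.97% and 8.98% of rods and 12.2% and 7.35% of cones, so the order of the 2 classes in white light is not settled at equal depth. Thinned microglia stood at 3.23% and 20%, on 31 and 15 cells. The thinned ratio of CPM, rods over cones, was 0.634 in the short-wavelength library and 1.10 (0.622 to 2.14) in the white-light library. In bipolar cells Prdm1 was counted only 9 and 5 times, at 8.18 and 12.5 CPM. Prdm1 spans chromosome 10 from 44437177 to 44528501 on the minus strand and overlaps no other gene model.

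**Figure D2:**
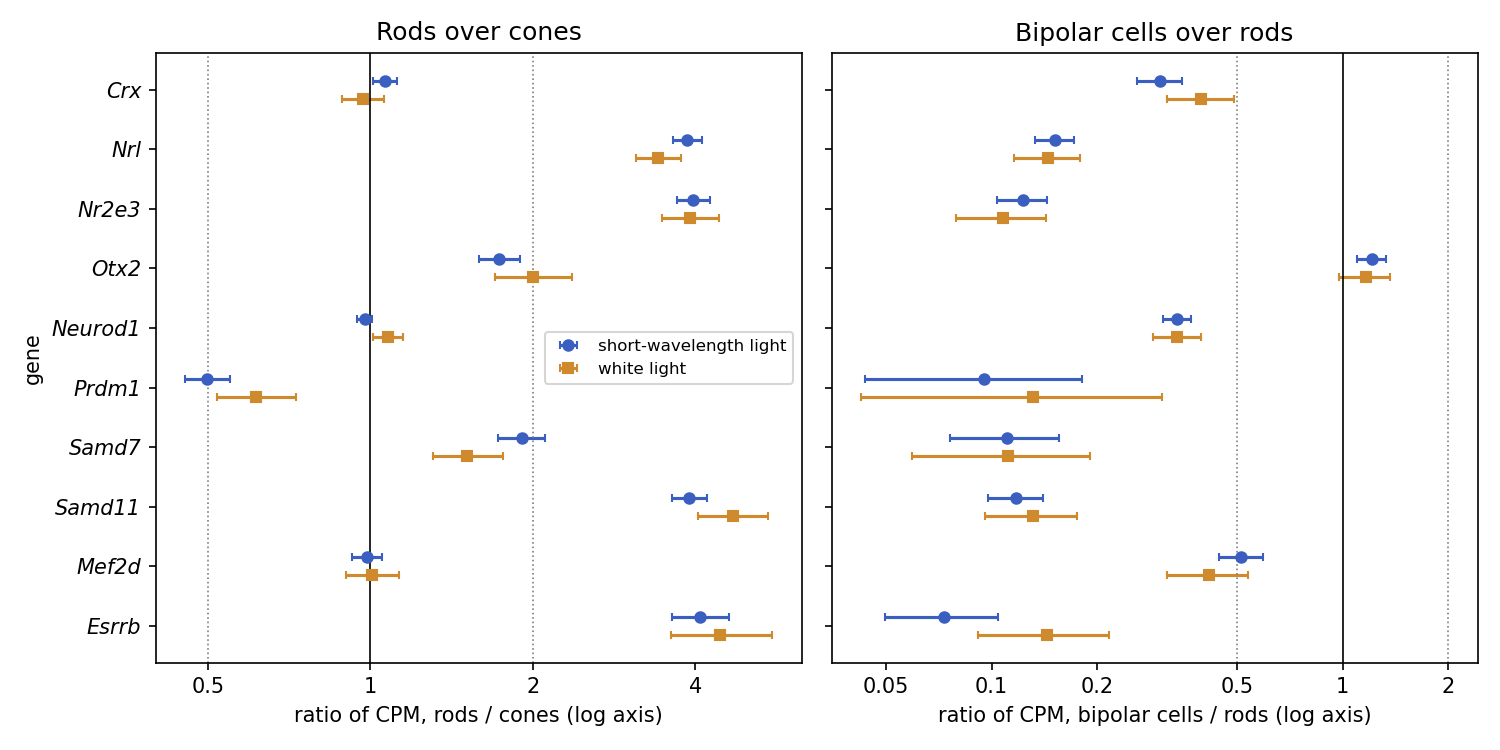
Ratio of CPM of rods over cones (left) and of bipolar cells over rods (right) for each regulator on log axes, in each library, with 95% counting intervals; dotted lines mark 2-fold. Nrl, Nr2e3, Samd11 and Esrrb lie beyond 2-fold on the left in both libraries, and on the right Otx2 alone lies above 1 in both.

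Ordered by level over all 5 classes, rods led for Nrl, Nr2e3, Samd7, Samd11 and Esrrb, bipolar cells for Otx2 and cones for Prdm1 in both libraries. In the white-light library the intervals of bipolar cells and rods overlapped for Otx2. Microglia came second for Prdm1 in that library, at 99.2 CPM (51.3 to 173), with an interval that overlaps those of cones and of rods. For Crx, Neurod1 and Mef2d the first place passed between rods and cones from one library to the other, with intervals of the 2 classes that overlap. Cones came second for Nrl and Samd7 in both libraries, and for Nr2e3, Samd11 and Esrrb in the short-wavelength library. Under white light the 16 microglia stood above cones for these last 3 genes, with intervals that overlap those of cones, and their share of UMIs from the 5 rod marker genes was 0.443%, against 0.261% in microglia of the short-wavelength library.

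How much of each regulator travelled with rod RNA was measured by dividing its UMIs by the summed UMIs of 3 rod genes, Gnat1, Pde6b and Cnga1, and setting this against the same quotient in rods of the same library. A value of 1 means that the regulator was counted in the proportion it has to these genes in rods. In cones the quotient was 0.979 (0.921 to 1.04) with short-wavelength light and 1.12 (1.01 to 1.23) with white light for Nrl, 0.956 and 0.973 for Nr2e3, 0.972 and 0.811 for Samd11 and 0.929 and 0.857 for Esrrb. The 3 rod genes themselves ranged from 0.830 to 1.10. They make up the divisor, so their values lie around 1 by construction and give no separate measure of scatter. The values of these 4 regulators lay in or near that range. In the white-light library the interval of Nrl lies above 1 and that of Samd11 below it.

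The other regulators exceeded that proportion in cones. Prdm1 reached 7.59 (6.90 to 8.34) and 6.21 (5.22 to 7.33), Neurod1 3.88 and 3.53, Mef2d 3.85 and 3.78 and Crx 3.56 and 3.93. Otx2 stood at 2.18 and 1.90 and Samd7 at 1.99 and 2.52, with every interval of these 6 genes above 1. In bipolar cells Otx2 reached 9.21 (8.35 to 10.1) and 8.98 (7.57 to 10.6), followed by Mef2d at 3.92 and 3.21, Neurod1 at 2.57 and 2.61 and Crx at 2.30 and 3.06. Nr2e3, Samd7, Samd11 and Prdm1 had intervals that include 1 in bipolar cells of both libraries. Nrl stood there at 1.15 (1.01 to 1.31) and 1.11 (0.891 to 1.38), and Esrrb at 0.558 (0.379 to 0.792) and 1.11 (0.705 to 1.67). Mef2d was above 1 in Müller glia (1.77 and 3.05) and in microglia (3.51 and 2.20) too. Nrl stood at 0.979 (0.804 to 1.18) and 1.20 (0.905 to 1.57) in Müller glia and Otx2 at 1.48 (0.764 to 2.58) and 1.46 (0.753 to 2.55) in microglia, with intervals that include 1. Prdm1 stood at 2.78 (1.02 to 6.07) and 4.82 (2.49 to 8.44) in microglia, on 6 and 12 UMIs. Under white light only, intervals also lay above 1 for Samd7 in Müller glia, at 2.16 (1.30 to 3.38), and Samd11 in microglia, at 1.58 (1.10 to 2.18).

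**Figure D3:**
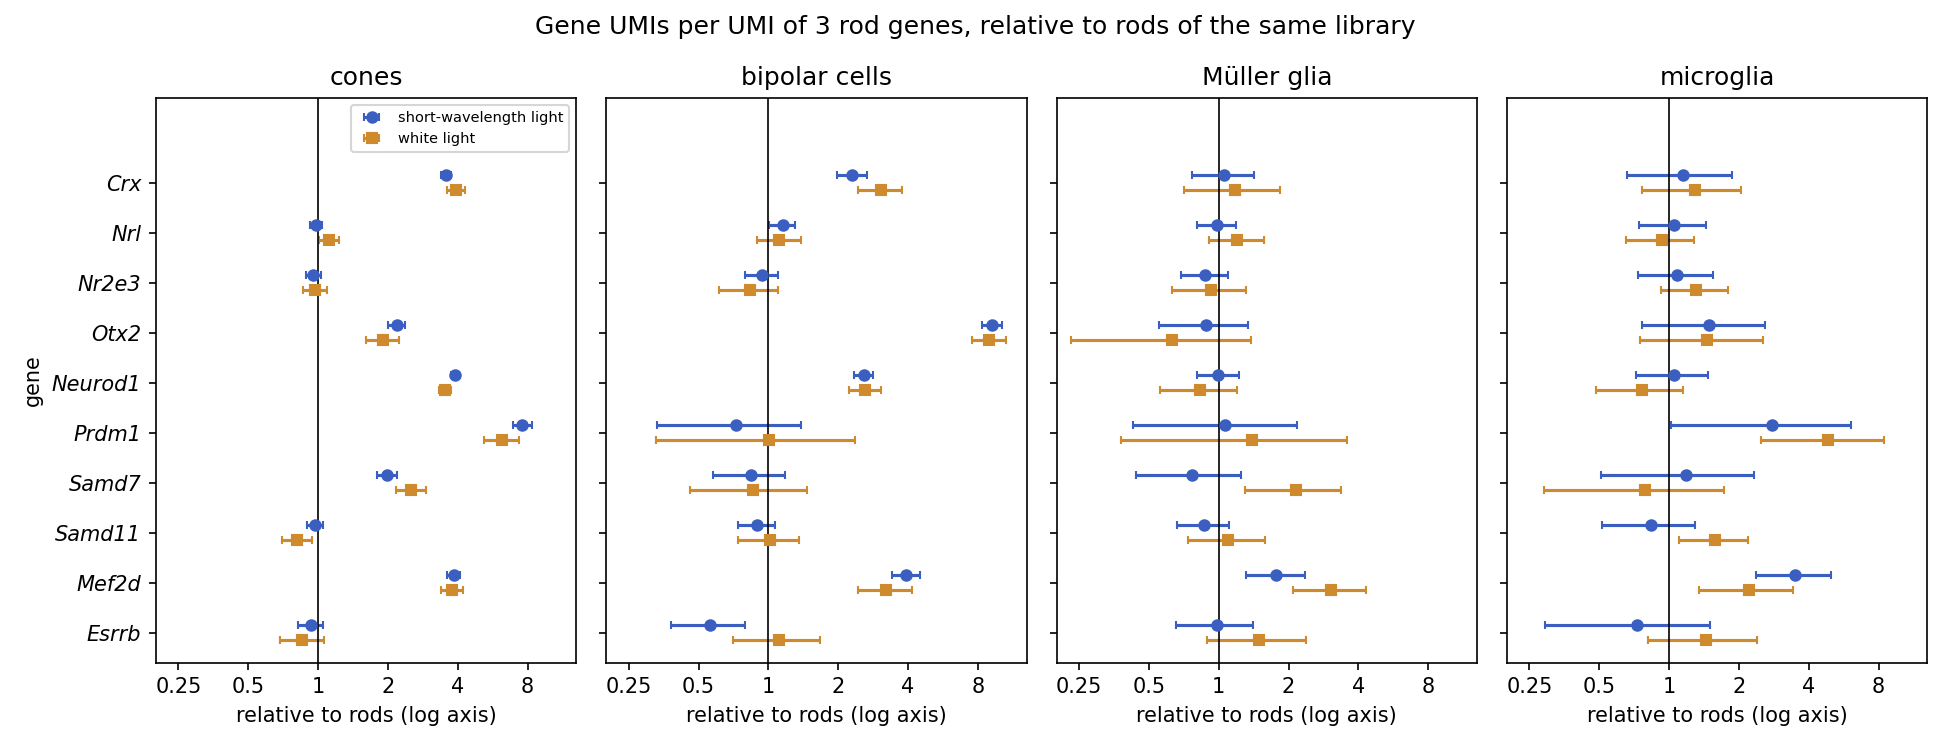
UMIs of each regulator per UMI of 3 rod genes (Gnat1, Pde6b, Cnga1) in 4 classes, relative to rods of the same library, on log axes, with 95% counting intervals. In cones Nrl, Nr2e3, Samd11 and Esrrb lie between 0.811 and 1.12 while Prdm1 lies at 7.59 and 6.21, and in bipolar cells Otx2 lies at 9.21 and 8.98.

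For several regulators the ratio of rods over cones was larger in cones with few rod marker UMIs. These markers include Gngt1, which the rod RNA measure leaves out. Their UMIs were not scaled to the depth of the cell, so the split can also pick shallower cones. The cause of the shift was not tested. In the cones with fewer rod marker UMIs than the median cone of their library, 207 and 69 cells, the ratio of rods over cones was 9.44 and 8.20 for Nrl, 9.33 and 10.9 for Nr2e3, 8.65 and 12.6 for Samd11 and 10.3 and 11.0 for Esrrb, each more than 1.5 times the value over all cones. Samd7 moved likewise to 3.11 and 3.27. Otx2 stood at 1.96 (1.68 to 2.31) and 2.59 (1.87 to 3.68). Neurod1 stood at 1.15 (1.08 to 1.22) and 1.24 (1.10 to 1.40), with both intervals above 1 and the short-wavelength direction turned. Crx stayed at 1.09 and 0.979, Mef2d at 0.992 and 0.976 and Prdm1 at 0.499 and 0.673. With rod RNA taken off all cones Samd7 reached 3.84 (3.48 to 4.24) and 2.51 (2.17 to 2.92), wholly beyond 2-fold, and Prdm1 remained below 1 at 0.574 (0.523 to 0.631) and 0.731 (0.619 to 0.869).

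Within cones, Samd7 differed between cells dominated by the short-wavelength opsin and cells dominated by the medium-wavelength opsin. Cones with at least 10 opsin UMIs were called dominant where 80% of these came from Opn1sw or from Opn1mw, which gave 161 and 50 S-opsin cones, 148 and 41 M-opsin cones and 104 and 36 cones with both. Samd7 stood at 126 CPM (105 to 149) in S-opsin cones and 178 CPM (153 to 205) in M-opsin cones under short-wavelength light, and at 71.2 CPM (42.9 to 111) and 257 CPM (206 to 317) under white light. The ratio of S-opsin over M-opsin cones was 0.709 (0.563 to 0.891) and 0.277 (0.159 to 0.459), below 1 with its interval in both libraries. Samd7 UMIs were found in 56 of 161 S-opsin cones (34.8%) and 84 of 148 M-opsin cones (56.8%) under short-wavelength light, and in 10 of 50 (20%) and 29 of 41 (70.7%) under white light.

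The kinds of cone differed in depth as well, with medians of 6271 UMIs in S-opsin and 6878 in M-opsin cones under short-wavelength light and 4921.5 and 8487 under white light, and rod marker genes took 0.876% and 1.03% of UMIs in S-opsin cones and 0.738% and 0.747% in M-opsin cones. Thinned to 1000 UMIs per cell, the shares with a Samd7 UMI were 8.12% of S-opsin and 14.2% of M-opsin cones under short-wavelength light and 6.25% and 14.6% under white light, with intervals that overlap within each library. A few cells carried many of the UMIs: the 2 cells with the most Samd7 UMIs held 17.6% and 36.8% of those in S-opsin cones and 11.7% and 28.7% of those in M-opsin cones. Prdm1 was also lower in S-opsin cones under short-wavelength light, with a ratio of 0.756 (0.613 to 0.931), and its ratio under white light was 0.987 (0.666 to 1.46). Nrl stood at 1.15 (0.998 to 1.33) and 1.29 (1.01 to 1.65), and Nr2e3 at 1.12 (0.952 to 1.32) and 0.962 (0.703 to 1.31). For Neurod1 the white-light ratio was 0.846 (0.721 to 0.993), and the ratio in the other library was 1.09 (1.01 to 1.18). Its intervals leave out 1 in opposite directions, so the order of the kinds of cone reversed between libraries for this gene. The cause of these differences was not tested, and no share of all genes is given beside this contrast of cone kinds.

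In rods the 2 light conditions gave nearly the same levels of all 10 regulators. The ratio of short-wavelength light over white light ran from 0.901 for Prdm1 to 1.09 for Samd11, with a median of 1.003 beside 1.01 over 13031 genes. None passed 1.5-fold, as was the case for all but 0.107% of genes upwards and 0.2% downwards. Crx stood at 1.03 (1.01 to 1.06), Neurod1 at 1.08 (1.06 to 1.10) and Samd11 at 1.09 (1.07 to 1.11), 3 genes with intervals above 1, beside 14% of all genes. Nrl at 0.974 (0.960 to 0.988), Prdm1 at 0.901 (0.850 to 0.955), Samd7 at 0.930 (0.900 to 0.961) and Esrrb at 0.965 (0.939 to 0.992), 4 genes, had intervals below 1, beside 13.8%. With 65136 and 26015 Nrl UMIs behind its ratio, for example, counting error is small and the difference between animals or preparations is not measured at all.

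In cones the ratio of short-wavelength light over white light ran from 0.738 for Samd7 to 1.31 for Samd11, again with none beyond 1.5-fold, a size reached by 0.0586% of 8531 genes upwards and 0.0703% downwards. Neurod1 (1.19 (1.12 to 1.28)) and Samd11 (1.31 (1.11 to 1.55)) had intervals above 1, beside 5.71% of genes, and Nrl (0.860 (0.768 to 0.964)) and Samd7 (0.738 (0.619 to 0.882)) below 1, beside 5.15%. Samd11 stood at 1.19 (0.991 to 1.45) with doublets removed, and Samd7 at 1.01 (0.588 to 1.83) after thinning and 0.872 (0.732 to 1.04) as a mean over cells, intervals that include 1. Samd7 went in opposite directions in the kinds of cone: its ratio was 1.77 (1.09 to 3.03) in S-opsin cones on 131 and 19 UMIs, of which 2 cells held 17.6% and 36.8%, 0.692 (0.534 to 0.903) in M-opsin cones and 0.501 (0.367 to 0.685) in cones with both opsins, where 2 cells held 43.2% of the white-light UMIs. Neurod1 stood at 1.38, 1.07 and 1.17 in the same 3 kinds. UMIs of Nrl (0.979 and 1.12) and Samd11 (0.972 and 0.811) in cones stood near the proportion of rod RNA. Rod RNA was not taken off in these light ratios, so cone RNA and rod RNA cannot be told apart in them.

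In bipolar cells 8 regulators had at least 50 UMIs over both libraries, and none differed beyond 1.5-fold between light conditions, beside 0.269% of 5573 genes upwards and 0.0897% downwards. Otx2, with its highest CPM in these cells, stood at 1.07 (0.883 to 1.30) and Crx at 0.788 (0.606 to 1.03). Esrrb had 31 UMIs under short-wavelength light and 23 under white light, and its ratio of 0.491 (0.277 to 0.881) was the only one with an interval leaving out 1, beside 4.13% of genes in that direction and 4.63% upwards, where none of the 8 was counted. It was 0.487 (0.267 to 0.903) with doublets removed and 0.465 (0.227 to 0.967) in rod bipolar cells, on fewer than 50 UMIs. Esrrb was counted at 28.2 and 57.4 CPM in bipolar cells, where rod RNA in its proportion would give 50.5 and 51.6 CPM. Prdm1 and Samd7 had too few UMIs, with ratios of 0.655 (0.197 to 2.49) and 0.924 (0.474 to 1.91).

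**Figure D4:**
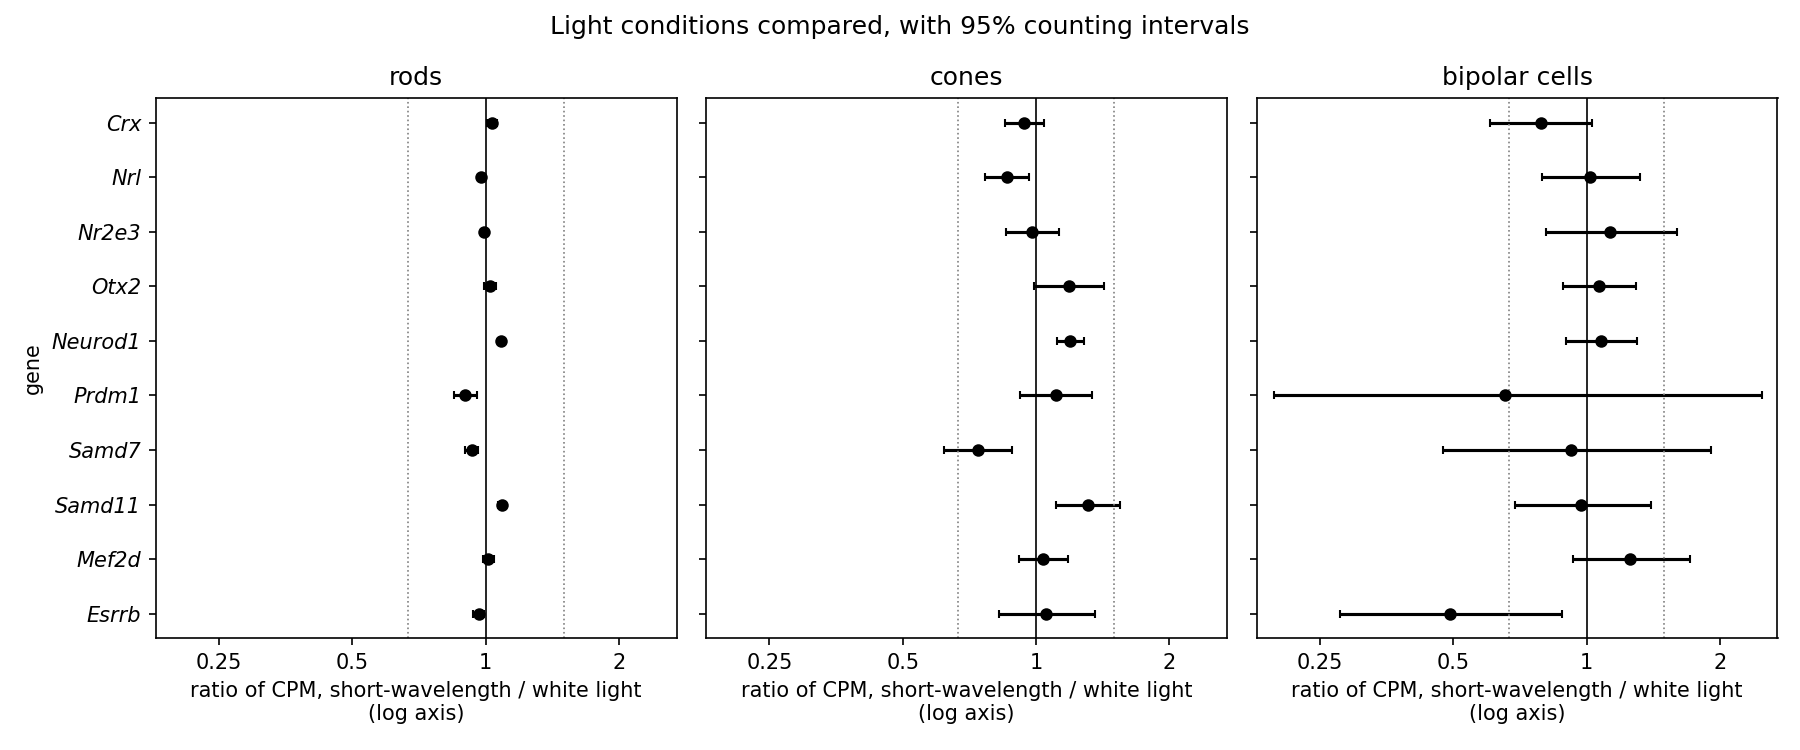
Ratio of CPM under short-wavelength light over white light in rods, cones and bipolar cells on log axes, with 95% counting intervals; 1 library per condition, and dotted lines mark 1.5-fold. All 10 ratios in rods lie between 0.901 and 1.09, and Esrrb in bipolar cells is the lowest at 0.491.

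Rods differ in how much of their RNA is nuclear, and the long non-coding RNA Malat1, which stays in the nucleus, gives a measure of this. Rods of both libraries were divided together into 5 parts of equal size by the Malat1 share of their UMIs. The part with the lowest share held 17% of short-wavelength rods and 28.9% of white-light rods, and the part with the highest held 22.6% and 12.3%. Mitochondrial genes took 1.97% and 1.73% of UMIs in the lowest part and 0.413% and 0.487% in the highest.

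Nrl followed this division more than any other of the 10. It stood at 2206 and 2116 CPM in the part lowest in Malat1 and at 1200.1 and 1168 CPM in the highest, a ratio of highest over lowest of 0.544 (0.531 to 0.557) with short-wavelength light and 0.552 (0.527 to 0.578) with white light. The median over all genes was 1.13 and 1.09. Nr2e3 stood at 0.876 in each library and Crx at 1.02 and 1.01, while Samd11 at 1.39 and 1.37, Otx2 at 1.22 and 1.23 and Neurod1 at 1.20 and 1.21 were higher where Malat1 was high. The rod marker genes took a larger share where Malat1 was low, with 3.77% and 3.60% of UMIs in the lowest part and 1.64% and 1.61% in the highest.

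Within these parts the Nrl ratio between light conditions turned round. It was 1.04, 1.05, 1.05, 1.04 and 1.03 over the 5 parts from low to high Malat1, above 1 in each, against 0.974 over all rods. Crx, Neurod1 and Samd11 stayed above 1 within the parts except for Crx in part 4, at 0.989. Samd7, Prdm1 and Esrrb were below 1 in parts 1 to 4 and at 1.02, 1.01 and 1.04 in part 5. Poisson intervals of the Nrl level in the 2 libraries lay apart in parts 1 to 3 and overlapped in parts 4 and 5. Those of Crx overlapped in part 4, and those of Samd7, Prdm1 and Esrrb in part 5.

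**Figure D5:**
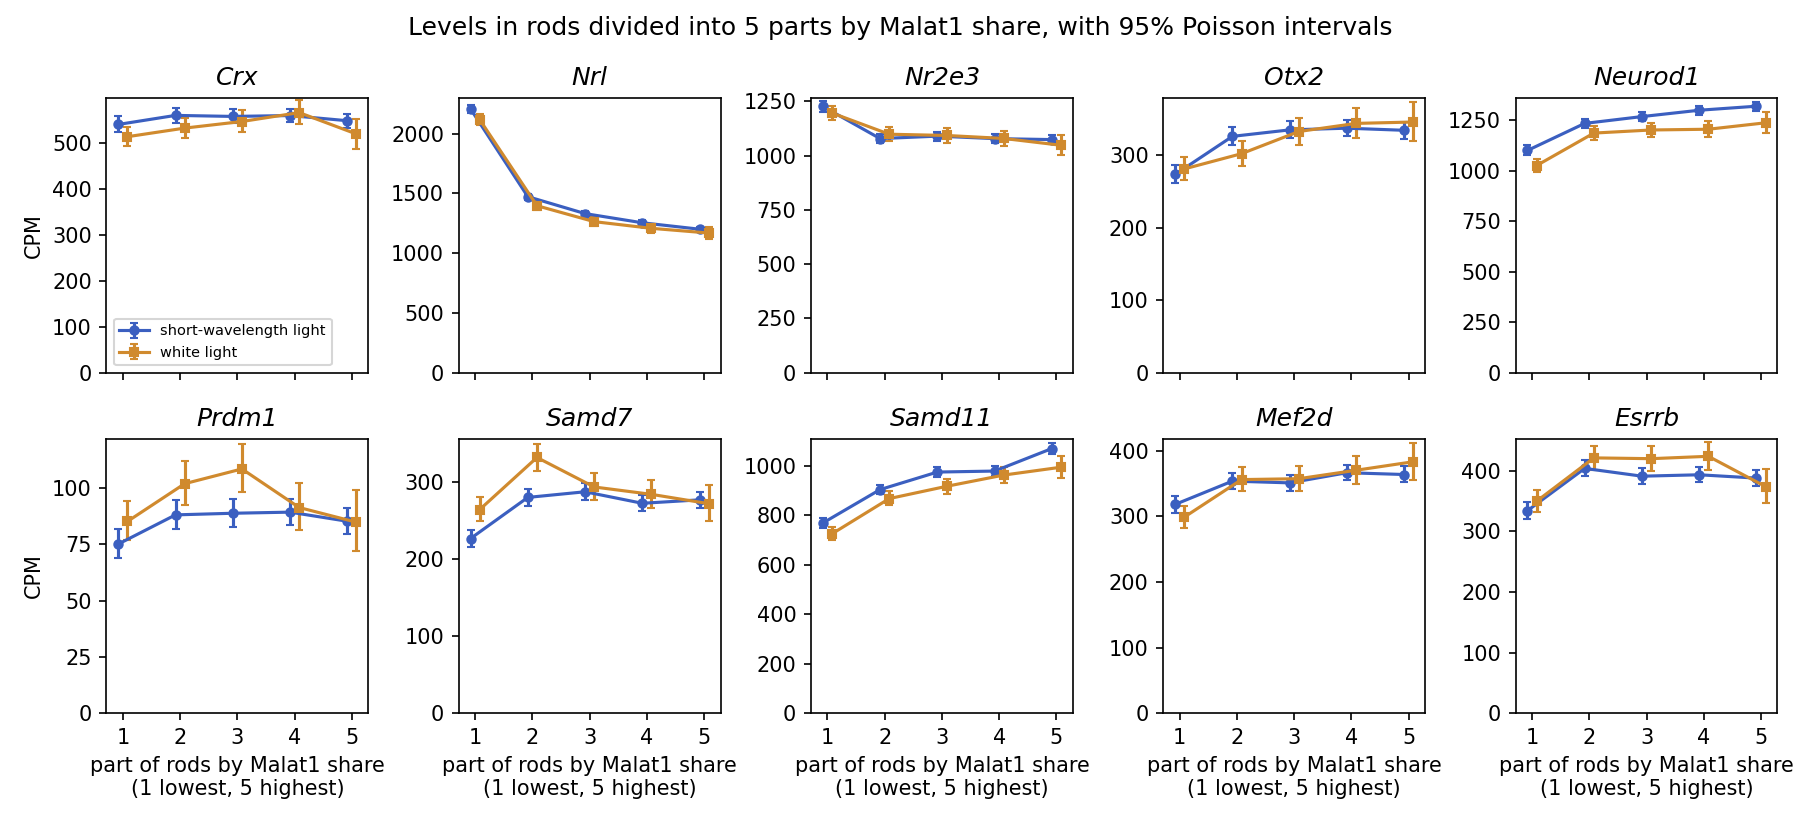
Level of each regulator in rods divided into 5 parts by the Malat1 share of UMIs, from lowest (1) to highest (5), as CPM with 95% Poisson intervals, under short-wavelength light (circles) and white light (squares). Nrl is highest in part 1 in both libraries, and Samd11, Otx2 and Neurod1 are higher in part 5 than in part 1.

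Genes known to lie downstream were measured in the same classes. Of 8 cone genes that Nr2e3 and its partners hold low in rods, all 8 were lower in rods than in cones beyond 2-fold in both libraries, beside 7.03% and 5.47% of all genes. Gnb3, the beta subunit of cone transducin, had 110.1 and 116 CPM in rods and 2797 and 2794 CPM in cones, and Cngb3, a subunit of the cone channel, had 13.7 and 10.9 CPM in rods and 2879 and 2757 CPM in cones. The median ratio of the 8 was 0.00656 and 0.00567, beside 1.12 and 1.14 over all genes. Of 19 rod genes activated through Crx and Nrl, 10 under short-wavelength light and 9 under white light were higher in rods than in cones beyond 2-fold, beside 2.58% and 2.48% of all genes, with a median of 2.09 and 2.01. Gnb1, the beta subunit of rod transducin, was 3.79 and 4.03 times as high, while Sag, the rod arrestin, stood at 1.36 and 1.31. All 19 were lower in bipolar cells than in rods beyond that size, beside 8.03% and 6.2%. These lists were chosen as known cone genes and known rod genes, and UMIs of a single class can meet the minimum. The counts are therefore a description and not a test of what the regulators do.

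Regulators known from bipolar cells were listed as well. Of 18 listed, 12 had at least 50 UMIs over bipolar cells and rods together. All 12 were higher in bipolar cells beyond 2-fold in both libraries, beside 11.9% and 8.32% of all genes. The list was chosen as bipolar genes, and bipolar UMIs alone can meet the minimum, so this count is a description and not a test. Isl1, a LIM-homeodomain factor of bipolar cells, had 699 and 764 CPM in bipolar cells and 1.40 and 1.83 CPM in rods. Among 18 other photoreceptor regulators, 13 were measured between rods and cones. In each library 1 was higher in rods beyond 2-fold, beside 2.58% and 2.48% of all genes, and 2 were lower, beside 7.03% and 5.47%. The higher one was Mef2c, a relative of Mef2d, with 688 and 645 CPM in rods and 224 and 203 CPM in cones, a ratio of 3.07 and 3.18 where that of Mef2d was close to 1. The lower pair were Rxrg and Sall3, regulators of cones, named here after their values were seen. Casz1 stood at 1.71 and 1.80, Thrb, the thyroid hormone receptor that guides M-opsin expression, at 0.642 and 0.687, and Rora at 0.714 and 0.734. No measured member of these 4 lists differed beyond 1.5-fold between light conditions in rods, cones or bipolar cells.

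The genes whose profile over the 10 class-by-library levels was most like each of 4 regulators were ranked by Pearson correlation of log2(CPM + 5) among 11157 genes; the 10 points come from 5 classes in 2 libraries and share their rod RNA. For Nrl they included Gnat1 (r = 0.996) and Cnga1 (0.989), which are genes of the rod gate. For Nr2e3 they included Gnb1 (0.992) and Samd11 (0.988), and for Crx they were Icmt, Vezf1 (0.990 each) and Unc119 (0.984). For Otx2 they were Dnajc6 (0.980), Ythdc2 (0.967) and Plk5 (0.962). Among the regulators themselves the closest pairs were Nr2e3 with Samd11 (0.988), Crx with Neurod1 (0.980) and Nrl with Nr2e3 (0.978), and the least alike was Otx2 with Prdm1 (0.206).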

How the data were processed

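For 2 retinal libraries the authors deposited unnormalized UMI counts of each gene in each barcode; per the file headers they come from Cell Ranger 9.0.0. Seurat, edgeR and the mm10 build are named in the submitters' processing notes, and counting of introns or strand is not given in the sources used here. Barcodes under 300 detected genes or over 20% mitochondrial UMIs were dropped. Rods needed at least 10 marker UMIs and fewer than 5 of any other class; cones, bipolar cells and Müller glia needed 20 and microglia 10, from at least 3 genes, with more own than rod marker UMIs. No barcode passed more than 1 gate. Prkca and Slc6a9 were left out of the gates, and Gngt1 out of the rod RNA measure, after their values across classes were seen: Prkca stood at 747 and 811 CPM in rods and 5016 and 6043 CPM in bipolar cells, and Gngt1 exceeded the proportion of rods in cones 2.98 and 3.26 times. Doublets were left in place in the main values. UMIs were summed per class and library into CPM with exact Poisson intervals; ratios have exact conditional binomial intervals and shares of cells Clopper-Pearson intervals, all at 95%. A gene entered a comparison with at least 50 UMIs over both sides, and was called where its interval lay wholly beyond 2-fold between classes or 1.5-fold between light conditions. PCR duplicates are removed by UMIs, but cells of 1 library are no replicates.

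The members and gene lists were chosen with earlier results of these data known. Named genes are the 10 regulators, up to 4 genes per list with the most UMIs, and up to 3 genes most like Crx, Nrl, Nr2e3 and Otx2; items withheld from the text are not reported here, and the rod RNA measure was limited to 3 reported genes after its values were seen. Alternatives were a doubled gate minimum, a stricter cell filter, Scrublet doublet removal (scanpy 1.11.5), thinning to 1000 UMIs, other totals, edgeR 4.0.16 TMM and DESeq2 1.42.0 size factors on the summed counts, and removal of rod RNA, whose intervals do not carry the error of that step. Interval code was tested on simulated data. Positions are from GENCODE on mm10 and promoters from RefSeq. Protein sequences were not used here.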

Additional observations from a re-analysis of the deposited data

Results flagged for a closer look

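For 7 values the ratio between light conditions in cones or bipolar cells differed from that in rods by more than counting error. The quotients are the ratio of short-wavelength over white light in the named class over the same ratio in rods. In cones they were 0.883 (0.788 to 0.989) for Nrl, 1.10 (1.03 to 1.19) for Neurod1, 1.23 (1.02 to 1.49) for Prdm1, 0.794 (0.666 to 0.947) for Samd7 and 1.20 (1.02 to 1.42) for Samd11. In bipolar cells they were 0.762 (0.589 to 0.986) for Crx and 0.508 (0.296 to 0.873) for Esrrb, the last on 31 and 23 UMIs. They are 5 of 10 quotients in cones, beside 8.38% of 8434 genes whose quotient left out 1, and 2 of 10 in bipolar cells, where 8 regulators had at least 50 UMIs, beside 9.68% of 5392 genes. Rod RNA was not taken off in these quotients. Relative to its proportion, Nrl in cones stood at 0.979 and 1.12, Samd11 in cones at 0.972 and 0.811 and Esrrb in bipolar cells at 0.558 and 1.11. With 1 library per condition, a difference between classes beyond that of 2 preparations was not tested.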

How the results depend on the processing

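Nrl, Nr2e3 and Samd11 stayed beyond 2-fold higher in rods than in cones in both libraries under every alternative run, and Esrrb under all but thinning to 1000 UMIs per cell. With rod RNA taken off, Otx2 and Samd7 joined them, 6 in all. Mef2d then also joined the regulators lower in bipolar cells than in rods beyond 2-fold in both libraries. These numbered 9, beside 12.8% and 9.1% of all genes treated alike. No regulator passed 1.5-fold between light conditions in rods, cones or bipolar cells under any alternative. Thinning lowered the regulators beyond 2-fold lower in bipolar cells than in rods in both libraries to 3, against 8, on fewer UMIs; by library they numbered 7 and 3, beside 4.24% and 2.21% of all genes thinned alike. In rods, regulators with an interval above 1 numbered 3, and 5 with TMM, with median-of-ratios scaling and in Malat1 part 2 (beside 20.9%, 21.2% and 8.05% of all genes), and 2 in Malat1 parts 4 and 5 (6.28% and 5.93%); those below 1 numbered 4, and 2 with thinning, TMM or median-of-ratios scaling (7.89%, 9.26% and 9.07%), and 1, 2, 2, 1 and 0 in Malat1 parts 1 to 5 (8.57%, 7.62%, 6.12%, 5.66% and 5.32%). In cones those above 1 numbered 2, and 1 with doublets removed or thinning (5.06% and 3.79%) and 4 with the mean over cells (13.1%); those below 1 numbered 2, and 1 with the mean over cells (7.72%). In bipolar cells the single one below 1, Esrrb, became 0 with doublets removed, with thinning and in rod bipolar cells, where its UMIs came under the minimum of 50. The cause of these shifts was not tested. Among ratios whose own interval leaves out 1, directions reversed in 11 of the 719 values under alternatives: under thinning Prdm1 rods over cones in white light (1.10) and Samd7 between light conditions in cones (1.01), and within Malat1 parts Nrl (1.04, 1.05, 1.05, 1.04 and 1.03 in parts 1 to 5), Crx (0.989 in part 4), and Prdm1, Samd7 and Esrrb (1.01, 1.02 and 1.04 in part 5). A further 40 ratios whose own interval includes 1 turned to the other side, and 6 of these then had an interval leaving out 1: rods over cones, Crx in white light (1.30) and Neurod1 and Mef2d in short-wavelength light (1.31 and 1.33) with rod RNA taken off, Neurod1 in short-wavelength light in cones low in rod RNA (1.15) and as a mean over cells (1.06), and Esrrb between light conditions in cones under thinning (0.549). Of the 719, 565 moved by less than their counting interval and 143 by more without reversing; Prdm1 between light conditions in bipolar cells gave no ratio under thinning, with no UMI left in the white-light library.

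Without the minimum of 50 UMIs, the share of all genes called changed to 1.47% and 1.31% higher in rods than in cones, 4.61% and 3.28% lower in bipolar cells than in rods, and 0.798%, 0.215% and 0.167% lower under short-wavelength light in rods, cones and bipolar cells. No paired analysis was possible because each light condition has 1 library and the labels give no replicate numbers. The 50 white-light bipolar cells and 16 microglia limit what could be seen there.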

Other observations

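Removing the barcodes with the highest Scrublet scores, 12.9% of those in the short-wavelength library and 4.55% of those in the other, took away 49 and 9 cones. Without them the ratio of rods over cones was 4.78 and 3.86 for Nrl and 4.74 and 5.20 for Samd11, while Crx stood at 1.08 and 0.950.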
